A study of Homo sapiens with 6 samples.

Results

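The TCF/LEF transcription factors comprise 4 genes (LEF1, TCF7, TCF7L1 and TCF7L2), and 4 more encode the full-length Groucho/TLE corepressors examined here (TLE1, TLE2, TLE3 and TLE4). They were taken by gene symbol from the authors' deposited table, which held all 8 among its 12558 gene rows. The table belongs to a study of the melanoma line IGR37, of human origin, into which a doxycycline-switched CTNNB1 transgene had been placed with a piggyBac transposon and held by G418 selection. The transgene encodes beta-catenin with the nuclear localisation signal of the SV40 large T antigen at its N-terminus. Per the labels, doxycycline at 20 ng/ml for 24 h switched it on in 3 libraries, and 3 came from the same engineered cells without the drug. Doxycycline-treated cells lacking the transgene are not among the samples, so the drug and the transgene cannot be told apart, and the labels do not say whether the line is 1 clone or whether the replicates were grown as separate cultures. The p-values therefore measure only a spread among samples that may be technical. In such bulk RNA, fewer cells of a kind and less RNA per cell cannot be told apart.

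The header of the table names neither group nor says which is the numerator of the fold change. That the table holds the comparison of doxycycline with no doxycycline is taken from the labels and could not be settled from the file; if it holds another comparison, every fold below describes that one. Values are accordingly given for the numerator group and the denominator group, and "higher" and "lower" describe the numerator group. The authors' deposited table lists CTNNB1, the induced gene, as 3.89-fold higher (edgeR FDR 1.24e-08), the direction that doxycycline over no doxycycline would give. A 3' tag of the native gene need not count the transgene, so this value does not settle which groups were compared. All 7 melanocyte markers looked up (MLANA, PMEL, TYR, DCT, TYRP1, SOX10 and MITF) were present, at mean levels implied by the deposited fold change and average level of 143 to 2510 CPM (counts scaled to a common library size) in the numerator group and 1.83 to 32.0 CPM in the denominator group, summing to 7411 and 114 CPM. None of 7 T-cell markers was in the table, although LEF1 and TCF7 are best known as T-cell factors. Of the other markers, 2 of 3 endothelial and 3 of 5 fibroblast genes were listed, summing to 1.49 and 6.91 CPM in the numerator group and 10.1 and 99.7 CPM in the denominator group. The fibroblast genes split. In the authors' deposited table COL3A1 and COL1A1 were lower (log2 -6.74 and -5.91), and LUM was 8.59-fold higher (edgeR FDR 7.07e-05). VWF, DCN and PDGFRB were not listed, nor was any of 3 keratinocyte markers. Among the melanocyte markers, DCT was 102-fold and SOX10 78.0-fold higher in the authors' deposited table, between groups that the labels give as the same line with and without 24 h of doxycycline; whether the table holds that labelled comparison is not settled. All these marker levels moved with the comparison, and their part in the results below was not tested.

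TCF/LEF proteins bind DNA through a high-mobility-group box and have little activating power of their own. Without nuclear beta-catenin they recruit TLE proteins, which bring in histone deacetylases and keep Wnt target genes off; beta-catenin takes the place of TLE on the TCF/LEF protein and brings in coactivators. LEF1 and TCF7 are themselves Wnt targets in many tissues, TCF7L1 acts mainly as a repressor, and TCF7L2 is the main Wnt effector of the intestinal epithelium. In pigment cells LEF1 is known to act with MITF on melanocyte genes, and in melanoma lines LEF1 and TCF7L2 have been described as marking the differentiated and the invasive state.

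The promoter windows of the 4 genes with the largest changes, and of TLE3, are shown because LEF1 and TCF7 are themselves Wnt targets, so the letters read by the family can be looked for at its own start sites. Each window runs from 250 bases before to 50 bases after the start site that RefSeq gives (GRCh38.p14), 5′ to 3′ on the gene's strand. All 8 genes had such a window. Capitals mark matches to the TCF/LEF letters CTTTGAT or CTTTGAA, or to the E-box letters CACGTG or CATGTG that MITF-type factors read, searched on both strands.
LEF1 (chr4:108166252-108166551, minus strand): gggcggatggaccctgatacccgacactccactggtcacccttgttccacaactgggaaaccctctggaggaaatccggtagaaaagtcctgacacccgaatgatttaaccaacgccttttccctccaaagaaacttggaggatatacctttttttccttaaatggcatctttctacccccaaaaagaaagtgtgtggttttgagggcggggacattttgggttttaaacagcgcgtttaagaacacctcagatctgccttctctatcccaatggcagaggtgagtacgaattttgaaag
TCF7 (chr5:134115363-134115662, plus strand): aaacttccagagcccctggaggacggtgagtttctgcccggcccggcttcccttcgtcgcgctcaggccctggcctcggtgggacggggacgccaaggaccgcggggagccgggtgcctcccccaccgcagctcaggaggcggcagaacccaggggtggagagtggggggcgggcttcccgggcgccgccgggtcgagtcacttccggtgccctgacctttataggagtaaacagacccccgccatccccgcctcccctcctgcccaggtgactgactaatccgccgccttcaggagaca
TLE1 (chr9:81689498-81689797, minus strand): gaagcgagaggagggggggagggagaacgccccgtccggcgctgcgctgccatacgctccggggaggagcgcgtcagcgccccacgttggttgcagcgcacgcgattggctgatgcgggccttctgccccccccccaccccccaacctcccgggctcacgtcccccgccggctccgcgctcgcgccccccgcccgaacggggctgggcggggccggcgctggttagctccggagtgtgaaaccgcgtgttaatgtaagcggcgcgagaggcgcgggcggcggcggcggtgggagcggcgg
TLE3 (chr15:70097868-70098167, minus strand): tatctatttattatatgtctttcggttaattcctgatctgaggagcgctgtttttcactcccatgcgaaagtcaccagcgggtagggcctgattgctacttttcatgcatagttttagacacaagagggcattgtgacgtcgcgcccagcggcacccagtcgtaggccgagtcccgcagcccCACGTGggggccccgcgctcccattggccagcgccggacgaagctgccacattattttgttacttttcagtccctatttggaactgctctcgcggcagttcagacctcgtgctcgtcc
TLE4 (chr9:79571715-79572014, plus strand): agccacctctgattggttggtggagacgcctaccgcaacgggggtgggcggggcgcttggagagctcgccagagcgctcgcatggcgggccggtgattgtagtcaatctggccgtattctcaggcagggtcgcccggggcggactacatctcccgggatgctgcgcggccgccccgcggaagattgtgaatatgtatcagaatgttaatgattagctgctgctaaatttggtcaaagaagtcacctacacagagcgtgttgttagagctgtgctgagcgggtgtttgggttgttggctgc

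None of the 8 windows held the TCF/LEF letters, which were found in 6.98% of 27305 RefSeq promoters and in 3.82% of the 9443 promoters whose gene is in the table. The 8 windows held 1 E-box, CACGTG in TLE3, whose first base is at position -68 from the start site; E-box letters were present in 17.9% of all promoters and 16.1% of those in the table. A missing match says only that these letters are not in this window. The start sites of LEF1 and TCF7 lie 2655 and 932 bases downstream of the start of the GENCODE gene, and those of TLE3 and TLE4 lie 259 and 192 bases downstream of theirs, so these windows, the 1 with an E-box included, are set on a downstream start and not the first one. Base composition varied widely among the 8, with 47.0% G and C in LEF1 and 76.0% in TLE1, against a median of 65.7% over the table's promoters.

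Of the 8 genes, 7 passed an FDR (the p-value adjusted over the whole table) of 0.05, 2 higher (LEF1 and TLE1) and 5 lower (TCF7, TCF7L1, TLE2, TLE3 and TLE4). Among all 12558 genes 50.9% passed, 24.5% as higher and 26.4% as lower, so a call by itself sets these genes apart by little. Of the 8 genes, 5 both passed and changed at least 2-fold (LEF1, TCF7, TLE1, TLE3 and TLE4), against 28.9% of all genes. The size of change separated the genes more than the call did. TLE4 and LEF1 lay far out, with larger log2 fold changes in either direction in only 2.25% and 4.87% of genes, and TCF7 and TLE1 followed at 10.0% and 19.0%. TLE3, TLE2, TCF7L1 and TCF7L2 lay within the bulk, with larger changes in 29.7%, 34.3%, 36.7% and 56.5% of genes. The median log2 fold change of the 8 was -0.86, against -0.01 over all genes.

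**Figure D1:**
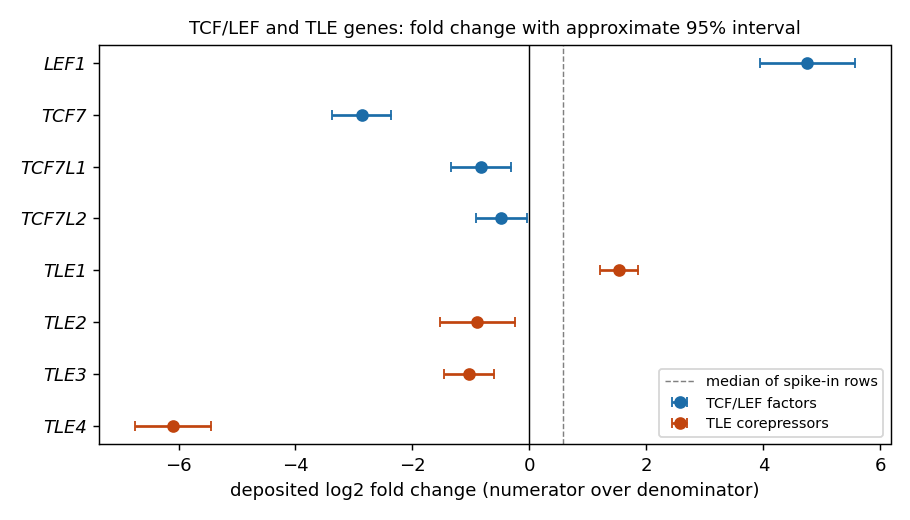
Deposited log2 fold change (numerator over denominator group) of the 4 TCF/LEF and 4 TLE genes with approximate 95% intervals computed from the F statistic; the solid line marks 0 and the dashed line the median of the spike-in rows at 0.57. LEF1 and TLE1 lie right of both lines and the other 6 genes lie left of 0.

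The table holds no value per library, so no replicate values or SD can be given, and the F test alone carries the spread between replicates. An approximate standard error was obtained as the log2 fold change divided by the square root of F, with intervals on the 14.03 denominator degrees of freedom that F and p imply for each of the 8 genes. That exceeds the 4 degrees of freedom of 6 libraries in 2 groups because edgeR shares spread between genes. A mean level per group was also computed, in CPM, from the deposited fold change and average level. Because these libraries read 1 tag near the 3' end of a transcript, CPM of different genes can be set side by side without a length correction, apart from differences in how well each 3' end is captured. Summed over all rows, the implied levels came to 101% of the total that CPM values should reach in the numerator group and 100.2% in the denominator group. The levels carry no error of their own.

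Among the DNA-binding factors, LEF1 was higher and TCF7 lower. LEF1 had an implied level of 22.8 CPM in the numerator group and 0.847 CPM in the denominator group. The authors' deposited table lists it as 26.9-fold higher (log2 4.75 ± 0.38, SE; approximate 95% interval 15.3- to 47.2-fold; edgeR FDR 1.19e-07), and 277 genes had a more positive fold change. The low denominator level means that the fold rests on few reads in that group, although its test kept 14.03 degrees of freedom, 2 of which are lost where a group holds no reads.

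TCF7 had an implied level of 8.24 CPM in the numerator group and 60.1 CPM in the denominator group. In the authors' deposited table it was 7.30-fold lower (log2 -2.87 ± 0.23, SE; approximate 95% interval 5.15- to 10.4-fold; edgeR FDR 1.60e-07). TCF7 was the most abundant TCF/LEF transcript of the denominator group and LEF1 that of the numerator group.

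The repressor-type factor TCF7L1 changed less, with 7.87 CPM in the numerator group and 14.0 CPM in the denominator group. Its fold change in the authors' deposited table was 1.78-fold lower (log2 -0.83 ± 0.24, SE; edgeR FDR 0.01002). TCF7L2 had 15.1 CPM in the numerator group and 21.1 CPM in the denominator group and did not pass the threshold in the authors' deposited table (log2 -0.48 ± 0.20, SE; approximate 95% interval -0.91 to -0.05; unadjusted p = 0.0317, edgeR FDR 0.0601). Before adjustment, that interval runs from 1.03-fold to 1.88-fold lower.

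As a family, the 4 factors summed to 54.0 CPM in the numerator group and 96.1 CPM in the denominator group. Their make-up differed. LEF1 accounted for 42.2% of the family's tags in the numerator group and 0.882% in the denominator group, and TCF7 for 15.3% and 62.6%. The share of TCF7L1 was 14.6% in each group, and that of TCF7L2 28.0% in the numerator group and 22.0% in the denominator group. The order was LEF1, TCF7L2, TCF7, TCF7L1 in the numerator group and TCF7, TCF7L2, TCF7L1, LEF1 in the denominator group. TCF7 and TCF7L1, neighbours in the first of these orders, were close together there (8.24 and 7.87 CPM); without values per library none of these steps could be tested.

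**Figure D2:**
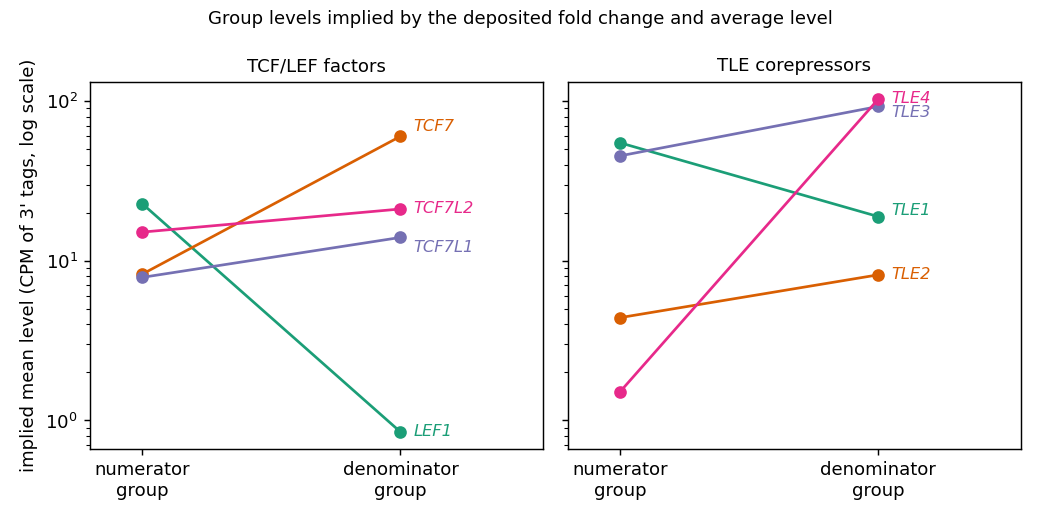
Mean level per group implied by the deposited fold change and average level, in CPM of 3' tags on a log axis, numerator group left and denominator group right; each line is 1 gene and no error is available. The lines of LEF1 and TCF7 cross in the panel of factors, and those of TLE1 and TLE4 cross in the panel of corepressors.

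The corepressors also exchanged rank. TLE4 had the largest change of all 8 genes, with 1.51 CPM in the numerator group and 103 CPM in the denominator group. The authors' deposited table lists it as 68.1-fold lower (log2 -6.09 ± 0.30, SE; approximate 95% interval 43.5- to 107-fold; edgeR FDR 8.27e-10), and only 153 genes had a more negative fold change. Its average level of 52.3 CPM exceeded that of 71.7% of genes, and the fold rests on a low level in the numerator group only.

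TLE1 moved the other way, with 54.8 CPM in the numerator group and 18.9 CPM in the denominator group. In the authors' deposited table it was 2.90-fold higher (log2 1.54 ± 0.15, SE; approximate 95% interval 2.31- to 3.64-fold; edgeR FDR 1.31e-06). TLE3 had 45.4 CPM in the numerator group and 92.5 CPM in the denominator group and, in the authors' deposited table, was 2.04-fold lower (log2 -1.03 ± 0.20, SE; edgeR FDR 0.000607). TLE2, the rarest of the 4 on average, had 4.40 CPM in the numerator group and 8.17 CPM in the denominator group and, in the authors' deposited table, was 1.85-fold lower (log2 -0.89 ± 0.30, SE; edgeR FDR 0.0232).

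Together the 4 corepressors summed to 106 CPM in the numerator group and 223 CPM in the denominator group. TLE1 made up 51.6% of these tags in the numerator group and 8.49% in the denominator group, TLE4 1.43% and 46.3%, and TLE3 42.8% and 41.6%. Corepressor tags outnumbered TCF/LEF tags 1.96 to 1 in the numerator group and 2.32 to 1 in the denominator group. Both families thus had fewer summed tags in the numerator group. Reading the deposited average as a mean of logarithms instead gave 1.25 and 4.29 to 1, but under that reading the levels of all rows overshot the CPM total, at 113% in the numerator group and 112% in the denominator group.

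**Figure D3:**
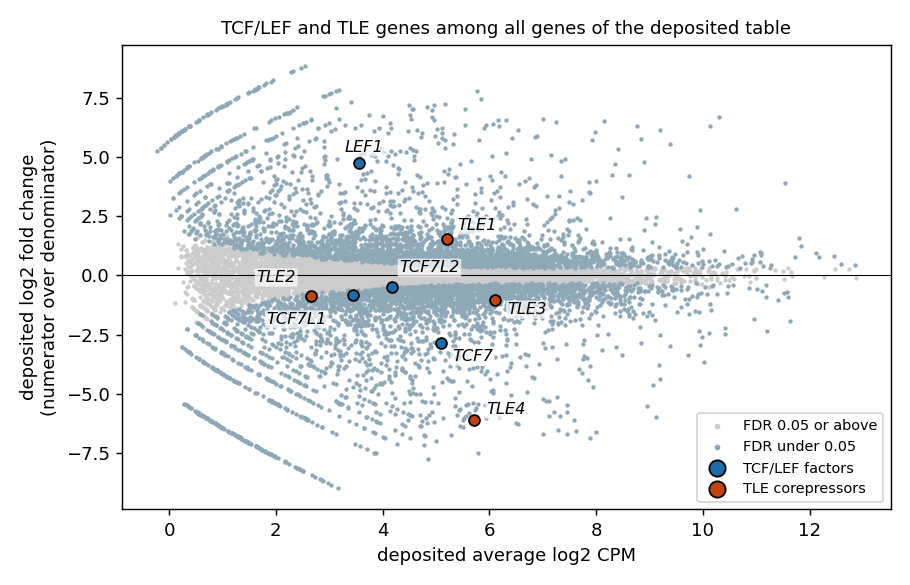
Deposited log2 fold change (numerator over denominator group) against deposited average log2 CPM for all 12558 genes, with the 4 TCF/LEF factors in blue and the 4 TLE corepressors in red. TLE4 and LEF1 lie near the lower and upper edges of the cloud, while TCF7L1, TCF7L2, TLE2 and TLE3 lie in its dense centre.

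The zero point of the comparison bears on the smaller changes. In the authors' deposited table the 59 rows of synthetic spike-in RNA centre on 0.57 (median, log2). With 0.57 as the zero point 7987 genes passed (1423 higher, 6564 lower), and higher genes made up 17.8% of the calls in place of 48.1%. All 8 TCF/LEF and TLE genes passed on that scale, 2 higher and 6 lower, where 11.3% of all genes were higher and 52.3% lower. TCF7L2 joined the lower genes with a log2 value of -1.05 (FDR 0.000412 recomputed from the authors' deposited table, edgeR statistics), while LEF1 stood at 4.18, TLE1 at 0.97, TCF7 at -3.44 and TLE4 at -6.66. No direction among the 8 could turn, because subtracting 0.57 keeps lower values negative and LEF1 and TLE1 lie above 0.57 as deposited. The 0.57 was taken as exact, so the spread of the spike-in rows is not part of these recomputed FDRs and calls. With the 4 degrees of freedom of the libraries alone, LEF1, TCF7, TLE1, TLE3 and TLE4 passed, and TCF7L1 (FDR 0.0678) and TLE2 (FDR 0.0936) did not, again recomputed from the edgeR statistics of the deposited table.

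Position along the chromosome was examined through the 5 measured genes on each side of each gene. TLE4 and TLE1 are themselves neighbours on the long arm of chromosome 9 (TLE4 at 79571773 to 79726882 on the plus strand, TLE1 at 81583683 to 81689547 on the minus strand, hg38), with starts 2.01 Mb apart and no measured gene between them. In the authors' deposited table the pair moved in opposite directions, with log2 values of -6.09 and 1.54. The amino-acid synthesis enzyme PSAT1, the nearest measured gene before TLE4, had a log2 value of 0.60, and RASEF and FRMD3, which follow TLE1, had 4.60 and 5.05 in the authors' deposited table. IDNK, next after FRMD3, stood at -1.48 in the same table, so the genes around the pair lay on both sides of 0.

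TLE2 on chromosome 19 also lies beside a relative. The related gene TLE6 starts 0.0201 Mb away from it and, in the authors' deposited table, was 2.22-fold higher (edgeR FDR 0.0332, average 3.06 CPM), whereas TLE2 was lower. The call of TLE6 was lost centred on the spike-ins (FDR 0.239) and with 4 degrees of freedom (FDR 0.109, edgeR statistics), where TLE2 lost its call too, and neither passed 0.01. Around TCF7L2 on chromosome 10 (112950247 to 113167678, plus strand) all 10 neighbours had a negative log2 fold change, between -3.64 and -0.37 with a median of -1.09, and 7 of them passed as lower in the authors' deposited table. Among all genes 26.4% passed as lower. Around each other member 1 to 3 of 10 neighbours passed as lower and 0 to 5 as higher. The TCF7L2 window was singled out after the values were seen. TCF7L2 itself changed less than the median of its neighbours. LEF1 on chromosome 4 (108047545 to 108168956, minus strand) and TCF7 on chromosome 5 (134114681 to 134151865, plus strand) changed more than any of their 10 measured neighbours, whose log2 values ranged from -2.18 to 1.12 and from -1.11 to 0.21. The neighbours of TCF7L1 on chromosome 2, TLE2 and TLE3 on chromosome 15 had medians of -0.14, 0.04 and -0.46.

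**Figure D4:**
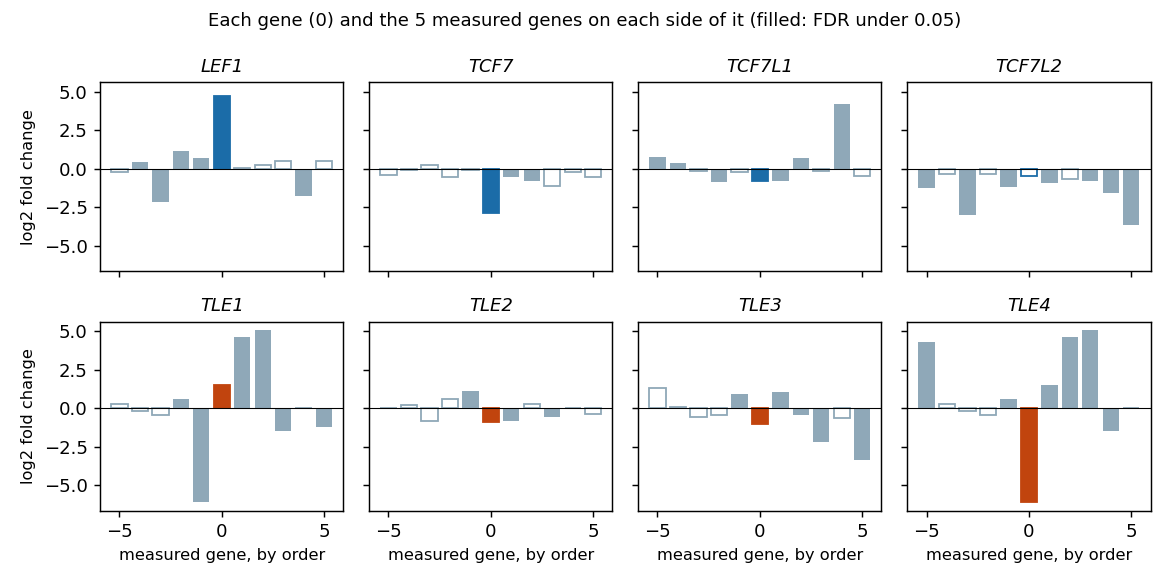
Deposited log2 fold change of each TCF/LEF (blue) and TLE (red) gene at 0 and of the 5 measured genes on each side in chromosomal order; filled bars passed an FDR of 0.05 and outlined bars did not. LEF1 and TCF7 stand out from their neighbours, TLE1 and TLE4 appear in each other's panels with opposite signs, and every bar around TCF7L2 points down.

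What a 3' tag can resolve differs among these genes. Start sites inside LEF1 and TCF7 are known to give short proteins that lack the beta-catenin binding part and act as natural inhibitors. In GENCODE 44, 3 of 6 coding LEF1 transcripts start translation downstream of the reference (MANE) start codon, and 1 of these 3 ends in the same last exon as the reference transcript. For TCF7 the counts are 12 of 14 coding transcripts with a later start, 4 of them ending in that last exon. Tags from that exon cannot separate such forms from the full-length one, so the values of LEF1 and TCF7 are totals over protein forms. All 13 coding TLE3 transcripts end in the reference last exon, against 1 of 6 for TLE1 and 5 of 13 for TLE4.

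Mixing of reads between relatives was checked over the last 500 bases of each reference transcript. No stretch of 40 bases there was shared between any of the 8 genes and another gene of GENCODE 44 except for TCF7, which shared up to 12 such stretches with any 1 of 4 unrelated genes (COQ8B, FERMT3, TRIM8 and ZNF230). No other annotated gene overlapped those 500 bases on either strand. Antisense genes overlap LEF1 (LEF1-AS1), TCF7 (SKP1), TCF7L1 and TCF7L2 elsewhere along their length; of these the authors' deposited table holds only SKP1, at a log2 value of -0.54. No source used here says whether reads were counted by strand.

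Genes that act together with these factors were described from lists chosen for their known roles, to be read against the 24.5% higher and 26.4% lower of all genes as deposited, and against 11.3% and 52.3% wherever counts are centred on the spike-ins. Of 15 measured coactivators of the beta-catenin-TCF complex, 4 were higher and 2 lower, and the median log2 value was 0.19 in the authors' deposited table. Besides CTNNB1, the higher ones were the methyltransferase CARM1 (1.63-fold), the remodeller ATPase SMARCA4 (1.70-fold) and the Mediator subunit MED12 (2.09-fold), and BCL9L, an adaptor that ties beta-catenin to Pygopus proteins, was 4.59-fold lower (edgeR FDR 2.88e-08), in the authors' deposited table. BCL9, PYGO1, PYGO2, CREBBP and EP300 had log2 values between -0.21 and 0.34 and did not pass as deposited; PYGO2 and CREBBP passed as lower when centred on the spike-ins. Centred on the spike-ins, CTNNB1 was the 1 coactivator still called higher and 6 of 15 were lower, a smaller share than the 52.3% of all genes, with a median of -0.38.

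Partners of the corepressors leaned lower. Of 13 measured, 6 were lower and 2 higher (median -0.29 in the authors' deposited table, or -0.86 centred on the spike-ins, where 10 were lower and 0 higher). HDAC3, a histone deacetylase, was 2.32-fold lower (edgeR FDR 2.63e-06) in the authors' deposited table. HIC1, a repressor that draws TCF7L2 into nuclear bodies, was 19.8-fold lower (edgeR FDR 8.75e-06) in the authors' deposited table. Its implied level in the numerator group was 0.577 CPM, so that fold rests on few reads there. HDAC1, the deacetylase best known to bind TLE proteins, had a log2 value of -0.07 (edgeR FDR 0.650) there, or -0.64 centred on the spike-ins, where it passed as lower. AES, the truncated TLE relative now named TLE5, which can block full-length TLE proteins, was 1.31-fold lower (edgeR FDR 0.0169) with an average of 212 CPM in the authors' deposited table, a higher average than that of any of the 4 full-length genes; its call was lost with 4 degrees of freedom (FDR 0.0821).

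Modulators of the binding between TCF/LEF proteins and beta-catenin moved little. Of 16 measured, 2 were higher and 3 lower with a median log2 value of -0.03; centred on the spike-ins 1, TNIK, was higher and 9 were lower, a share near the 52.3% of all genes. TNIK, a kinase that activates TCF7L2 complexes, was 2.86-fold higher (edgeR FDR 3.39e-05), and the kinase NLK, which phosphorylates LEF1 and TCF7L2, 1.70-fold higher (0.0358) in the authors' deposited table. KDM2A was 1.81-fold lower, the beta-catenin antagonist CBY1 1.66-fold lower and USP47 1.37-fold lower in the authors' deposited table. NLK lost its call centred on the spike-ins (FDR 0.563), and NLK, CBY1 and USP47 theirs with 4 degrees of freedom (FDR 0.112, 0.0623 and 0.0868, edgeR statistics). CTNNBIP1, an inhibitor of the beta-catenin-TCF contact, had a log2 value of 0.34 (negative on the spike-in scale) with an edgeR FDR of 0.0778.

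Repressors that recruit TLE proteins changed in both directions, and by more. Of 15 measured, 5 were higher and 8 lower (median log2 value -1.39, or -1.37 without HHEX, which had no reads in 1 group and is given no fold); centred on the spike-ins, 4 were higher and 10 lower. HES6, which counteracts the repressor HES1, was 18.7-fold higher (edgeR FDR 1.84e-10), HES4 9.11-fold lower and RUNX1 6.58-fold lower in the authors' deposited table. HES6 was the most abundant of the list on average, though not in the denominator group. The Runt factors split, with RUNX2 9.87-fold lower and RUNX3 2.06-fold higher in the authors' deposited table. HES1 itself had a log2 value of -0.39 and did not pass (edgeR FDR 0.185), but passed as lower centred on the spike-ins (-0.96).

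Among 9 measured partners of LEF1, 3 were higher and 2 lower (median -0.02), or 2 higher and 5 lower centred on the spike-ins (median -0.59). MITF, the pigment-cell regulator that binds LEF1, was 18.6-fold higher and the chromatin organiser SATB1 16.1-fold higher in the authors' deposited table. SMAD3, the TGF-beta effector that can act with LEF1, was 3.92-fold lower, and the homeodomain factor ALX4 25.5-fold lower in the authors' deposited table. The folds of SATB1 and ALX4 each rest on few reads in 1 group. Implied levels were 0.624 CPM for SATB1 in the denominator group and 0.564 CPM for ALX4 in the numerator group. ALYREF, a coactivator of LEF1, had a log2 value of -0.02 (edgeR FDR 0.924), or -0.59 centred on the spike-ins, where it passed as lower.

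The measured feedback targets of TCF/LEF factors did not follow 1 direction, and RNF43, NOTUM, LGR5, LGR6 and DKK4 were not listed. Of 9 measured, 4 were higher and 3 lower (median log2 value 0.65, with the same median without SP5 and NKD2, which had no reads in 1 group), also when centred on the spike-ins (median 0.08). The receptor gene TNFRSF19 and the Dishevelled inhibitor NKD1 (log2 4.86 and 3.53) moved in the direction of LEF1, whereas the secreted inhibitor DKK1 (76.0-fold lower) and the receptor-removing ligase ZNRF3 (2.28-fold lower, edgeR FDR 0.00898) moved in the direction of TCF7 and TLE4 in the authors' deposited table. With 4 degrees of freedom ZNRF3 did not pass (FDR 0.0654, recomputed from the edgeR statistics). AXIN2 had a log2 value of 0.65 ± 0.43 (SE) and an edgeR FDR of 0.230 at an average of 2.37 CPM, so no change was detectable at this level.

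**Figure D5:**
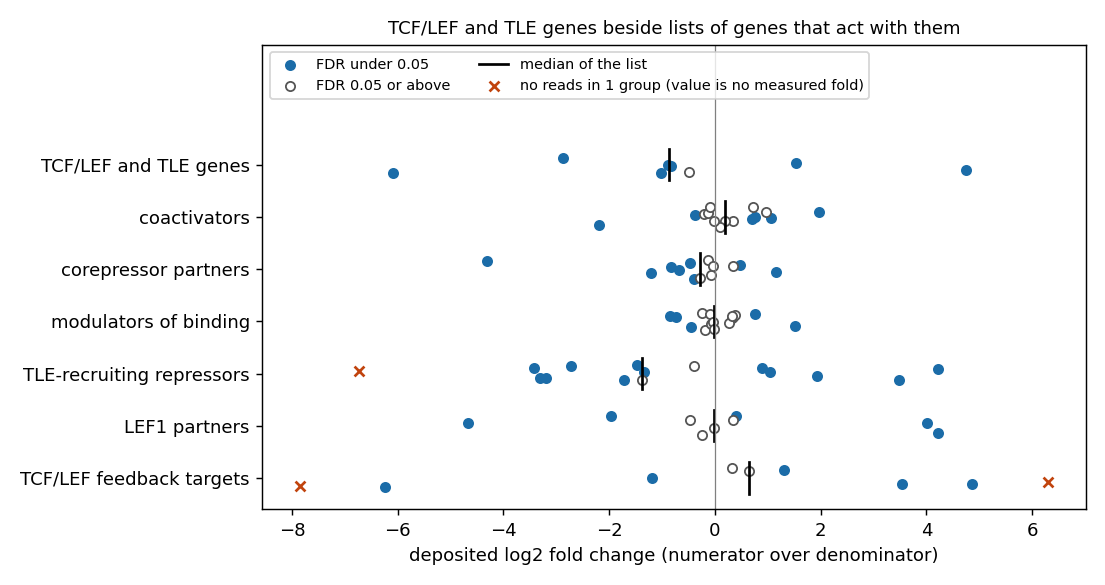
Deposited log2 fold change (numerator over denominator group) of the TCF/LEF and TLE genes and of 6 lists of genes that act with them; each point is 1 gene, filled where the FDR is under 0.05, a cross marks a gene with no reads in 1 group, and the bar is the list's median. Modulators of binding and coactivators cluster around 0, while TLE-recruiting repressors, LEF1 partners and feedback targets spread to both sides.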

How the data were processed

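The only file used was the authors' own comparison table, with no value per library. Per the labels' protocols, libraries were made from total RNA with a QuantSeq forward kit, which reads the 3' end. Per the submitters' processing notes STAR, edgeR and build hg38 were used. The sources used here state no version, counting step, low-count filter or depth per library, so no interval that needs depth was computed. Per the file headers, the authors deposited the fold change in log2 and linear form (a ratio), the average log2 CPM, the F statistic (a score), its p-value and the FDR. The log2 column equalled log2 of the deposited fold to within 4.26e-14. Adjusting the deposited p-values by Benjamini-Hochberg over 12617 rows returned the FDR column.

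A gene was called where the authors' edgeR FDR was under 0.05. Standard errors, degrees of freedom and group levels were derived from the table with Python 3.11.15, numpy 2.4.6, pandas 2.3.3 and scipy 1.17.1, and plotted with matplotlib 3.10.9. On a simulated table of 12617 independent genes, 95.0% of the 95% intervals held the true value. The simulated F followed the formula that the intervals invert, with the same spread for every gene and no counts. That checks the arithmetic only. Whether the intervals hold for edgeR's F on counts was not tested. A test with 2 degrees of freedom fewer than the median of 14.03 was read as no reads in 1 group (206 genes). Positions came from GENCODE 44 for 11616 table genes, promoters from RefSeq GRCh38.p14. Protein sequences were not used here. Named genes are the 8 genes, CTNNB1 and, per list, the 3 called members with the smallest p-values, of which 1 is not reported here; other list members, and the genes along the chromosome, were chosen after their values were seen. Genes most alike in pattern are not named, since 1 comparison gives no pattern. The genes and lists were chosen with earlier results of these data known.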

Additional observations from a re-analysis of the deposited data

How the results depend on the processing

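LEF1, TCF7, TLE1, TLE3 and TLE4 kept their call under all 6 alternatives tried on the table: centring on the spike-ins, 4 denominator degrees of freedom, a stricter FDR of 0.01, a minimum of 1 in average log2 CPM, an adjustment without the spike-ins, and a change of at least 2-fold. Only the centring alters a log2 fold change. It subtracts 0.57, so the values of TCF7, TLE3 and TLE4 stay negative, and LEF1 (4.75) and TLE1 (1.54) exceed 0.57. None of their directions could turn, so the kept directions test nothing. The lower genes among the 8 numbered 3 in place of 5 with 4 degrees of freedom, at an FDR under 0.01 and at 2-fold or more, because TCF7L1 and TLE2 dropped out each time. Over all 12558 genes, 4140 passed with 4 degrees of freedom, 4781 at an FDR under 0.01 and 3632 at 2-fold, against 6398. Of 13 measured corepressor partners, 8 passed as deposited and 4, 4 and 3 under these 3 settings. Of 16 modulators of binding, 5 passed as deposited and 2, 3 and 1 under the same settings. Of 15 coactivators, 6 passed as deposited and 3 at 2-fold. Centring on the spike-ins raised the modulators to 10 and all genes to 7987. Total calls for TLE-recruiting repressors, LEF1 partners and feedback targets stayed within 1.5 times of the deposited count under each alternative, but not each direction: lower LEF1 partners went to 5 from 2 centred on the spike-ins, and lower TLE-recruiting repressors to 5 from 8 with 4 degrees of freedom.

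With the average read as a mean of logarithms, summed levels were 97.5 CPM in the numerator group and 131 CPM in the denominator group for TCF/LEF, and 122 and 560 CPM for TLE. The shares moved too. LEF1 held 62.9% of TCF/LEF tags in the numerator group and TCF7 70.7% in the denominator group, and TCF7L1 held 8.41% and 11.2%. In the denominator group TLE4 held 77.0% and TLE3 17.6% of TLE tags. The order of the TCF/LEF factors stayed the same in each group. No paired analysis was possible because the table holds no values per library; for the same reason leaving out each replicate and DESeq2 size factors were not run. Library depth and the error of each group level remain unknown.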

Other observations

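The symbols TCF3, TCF4 and TCF12 belong to E proteins, helix-loop-helix factors of another family, although TCF4 is also an older name for TCF7L2 and TCF3 for TCF7L1. In the authors' deposited table TCF4 was 214-fold lower (edgeR FDR 1.46e-09), TCF3 was 1.46-fold lower (edgeR FDR 0.00406) and TCF12 was 2.02-fold higher (edgeR FDR 0.000113). The implied level of TCF4 was 0.268 CPM in the numerator group and 57.3 CPM in the denominator group. TCF7L2, which shares its older name, had a log2 value of -0.48 that did not pass, so a reading of the table by older names would give a different result for the Wnt effector.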
